A study of Mus musculus with 4 samples.

Results

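The small ribosomal subunit proteins are the protein components of the cytosolic ribosome's smaller part, which in mammals sediments as the 40S particle. Their genes were taken from the array by name: every gene symbol that starts with Rps followed by a digit or the letter a, without the S6 kinases (Rps6k) and without pseudogenes. The rule found 33 of the 27654 genes named on the array, with 59 probes. One of the 33, Rps19bp1, encodes a protein that binds Rps19 and is not part of the subunit, so it is described apart and left out of the counts below. The remaining 32 genes had 57 probes.

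RNA was measured in mouse oocytes, and the study asked which transcripts differ after high hydrostatic pressure. A treated sample was a pool of 50 oocytes held at 20 MPa and 37 °C for 60 min, and a control sample was a pool of 50 oocytes held likewise without the added pressure. Each of 4 arrays carried 1 treated pool, labelled with Cy5, and 1 control pool, labelled with Cy3, and the replicates are biological by the submitters' account. The dyes were not swapped, so dye and treatment cannot be told apart, and pooling hides differences between single oocytes. From each pool 240 pg of total RNA was amplified, so a ratio is relative to the RNA of the pool. Strain, age and maturation stage of the oocytes are not given in the sources used here. A ratio below is always treated over control on the log2 scale, where 0 means equal and -1 means that the treated pool was at 0.5 of the control.

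The small subunit reads the messenger RNA. It binds initiation factors and the initiator tRNA, scans to the start codon and holds codon and anticodon together in its decoding centre. A growing oocyte fills itself with ribosomes, a fully grown one makes little new RNA, and the stored messages, among them those for ribosomal proteins, are kept or broken down as the oocyte matures. Ribosomal protein messages commonly begin with a C and a run of pyrimidines, the terminal oligopyrimidine (TOP) tract, through which the cell sets their translation together.

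The samples had the markers of oocytes. Of 11 oocyte markers on the array, 6 to 8 were well above background in the treated pools and 7 to 8 in the control pools, and Nlrp5 was detected in none. Cumulus and granulosa markers, of which the array holds 13, were detected at 1 to 4 in the treated and 4 to 7 in the control pools, and their summed level was 10.5 to 11.9 in treated and 10.7 to 11.7 in control pools (log2 intensity). Amh, Foxl2, Fshr and Kitl were not detected in any pool, while other markers of this list were, so these cells cannot be called absent. The 5 tested markers were Hsd17b1, Nr5a2, Cyp19a1, Tnfaip6 and Inha, of which 4 had mean ratios below 0, with a median of -0.17. The sums for 7 blood and immune markers were 10.8 to 11.5 in treated and 11.1 to 12.0 in control pools, with Cd68 and Hbb-bt undetected, and for 7 markers of oviduct, vessel and stroma 10.1 to 11.05 and 9.62 to 10.5, with Epcam and Pecam1 undetected. In pooled RNA, fewer cells of a type and less RNA per cell cannot be told apart. Of the blood and immune markers 2 were tested: Srgn was below 0 on every array, at -0.55, -0.38, -0.53 and -0.61 (mean -0.52), and Hba-a1 had a mean of 0.28. The part of these cells in the ratios below was not tested. Replicate 1 stood apart from the other arrays: over all probes its ratios correlated with theirs at r = -0.17, -0.15 and -0.19, while the other pairs lay between 0.086 and 0.29. It also had the most detected spots in the treated channel, 11155 of 43379 against 7049 to 8146, and the fewest in the control channel, 8309 against 9505 to 10837. Small subunit results that move by over 1.5 times without it are given both ways.

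Ribosomal protein messages of the small subunit were widely detected. A probe was kept when it was well above background on at least 3 of the 4 arrays in the same channel, as 33 of the 57 probes were (57.9%), against 19.7% of all probes on the array. Of the 33 kept probes, 26 were detected in both channels of all 4 arrays, 3 were kept through the control channel alone and 0 through the treated channel alone. Such a probe passed through the pools in which it was the brighter, so the side of its ratio is partly set by the filter. Another 19 of the 57 were detected in no channel of any array. In this way 25 of the 32 genes could be tested, 20 of them by a probe detected in all 8 pools.

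The 7 genes that could not be tested include Rps6, Rps9, Rps10, Rps14, Rps15 and Rpsa. Rps6 is the subunit protein phosphorylated by the S6 kinases, and Rpsa is also known as the laminin receptor precursor. Both Rps6 probes and the single probes of Rps9, Rps10, Rps14 and Rps15 were not well above background in any pool. Both Rpsa probes were detected in 1 control pool and no treated pool. For these genes the array gives only a bound, and a low signal cannot be read as a low level, since other genes of the group had 1 bright and 1 dark probe: the second Rps12 probe and the second Rps13 probe, for example, were dark on every array while the first was detected in all 8 pools.

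Most of the tested genes had ratios below 0, by amounts that did not pass the test. The mean ratio was below 0 for 22 of 25 genes (88.0%), against 52.4% of all 6920 genes tested. The median over the 25 genes was -0.40, with single genes from -0.95 to 0.26, and the median over all genes was -0.016. Rps29, Rps27, Rps23, Rps27a, Rps18 and Rps20 had the lowest means, while Rps24 and Rps12 had means above 0.

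With limma and Benjamini-Hochberg adjustment over all 6920 genes, no gene on the array passed an adjusted p of 0.05 (0%), and the adjusted p of the 25 genes ran from 0.929 to 0.996. At an unadjusted p under 0.05, 288 genes of the array stood out in either direction. Among the 25 genes 8 did so, all with lower ratios (32.0%), against 3.44% of all genes that were lower at that limit. The p-values measure the spread between these 4 arrays, moderated in limma by the spread over all genes.

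The sign of the ratio was shared between arrays in many of the genes. Among the 24 small subunit genes measured on 4 arrays, 11 lay below 0 on each (45.8%), against 9.34% of all genes measured so. None was above 0 on all 4, where the share among all genes was 2.94%. The remaining 14 tested genes, Rps7 with its 3 values among them, had ratios on both sides of 0. Rps3a, one of the 11, was kept through the control channel alone. When only probes detected in both channels of all 4 arrays were used, 9 of 19 genes lay below 0 on each array, against 6.89% of all genes. The median over 20 genes was then -0.48, and that of all genes was 0.022.

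**Figure D1:**
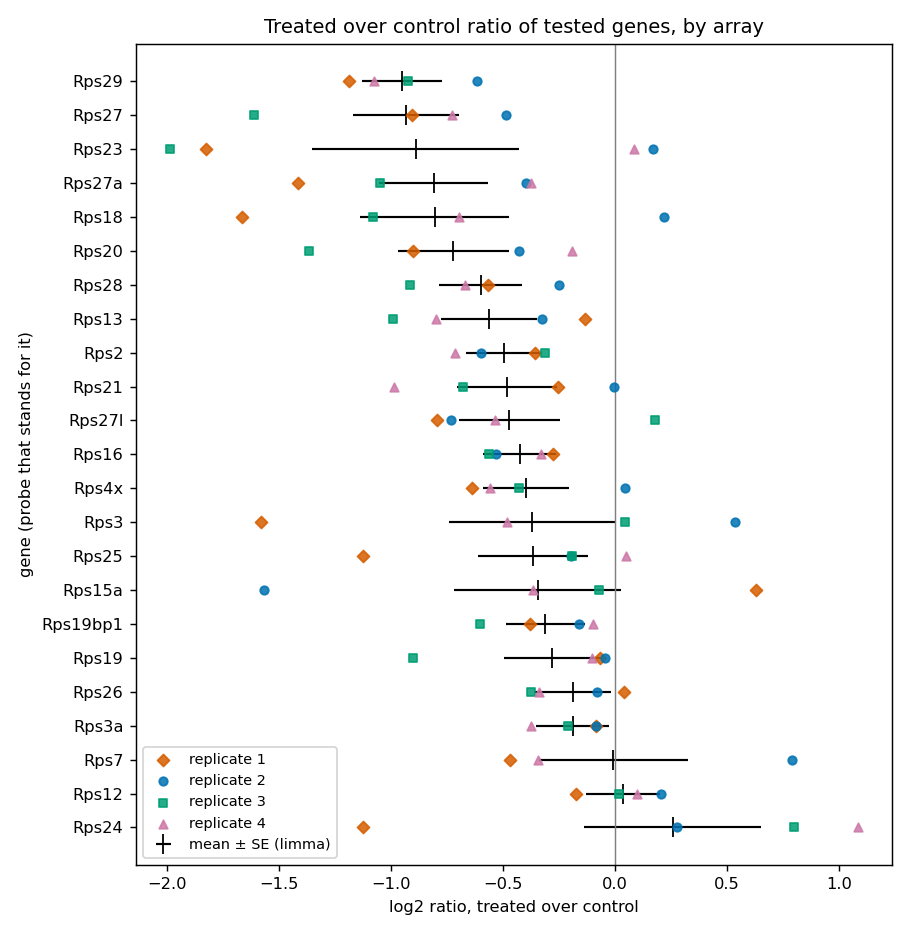
Log2 ratio of treated over control (x axis) for the tested genes described in the text (y axis), ordered by the mean; markers are the 4 arrays, and the black bar is the mean ± SE from limma. The mean lies left of 0 for most genes and for Rps19bp1, from -0.95 for Rps29 to 0.26 for Rps24, and the arrays of Rps23 lie in 2 pairs far apart.

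By array, the median over the genes was -0.57, -0.084, -0.40 and -0.38 in replicates 1 to 4, with a mean of -0.36 ± 0.20 (SD, n = 4). The number of genes below 0 was 22, 17, 18 and 20 in the same order. All 4 medians were thus negative, with replicate 1 the lowest and replicate 2 nearest to 0. Leaving out replicate 1, which ran against the others over the whole array, gave a median of -0.48 over the genes, and 13 of 24 genes lay below 0 on the other 3 arrays, against 21.9% of all genes. If the sign of replicate 1 is turned, as though its pools had been exchanged, the median becomes -0.15 and 2 of 24 genes lie below 0 on all 4 arrays, against 12.5% of all genes. On median centring in place of loess the median was -1.01, where that of all genes was -0.34, and 4 of 24 genes were below 0 on every array, against 6.75% of all genes. From the scanner's processed signals, which carry no offset, the means of probes that were not above background in every pool lay further from 0, at -2.23 for Rps3a, -1.34 for Rps26, -1.31 for Rps25 and -1.13 for Rps19, against -0.19, -0.19, -0.37 and -0.28 as reported.

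The other protein families give the scale of this shift. For the large subunit proteins (Rpl), 37 genes were tested, 30 had a mean below 0 (81.1%) and the median was -0.35, with array medians of -0.44, -0.25, -0.37 and -0.34. Their count below 0 on every array was 12 of 37 (32.4%). For the small subunit proteins of the mitochondrial ribosome (Mrps), 14 genes were tested, 7 had a mean below 0 (50.0%), the median was -0.042 and 1 gene was below 0 on every array. The difference between the cytosolic and the mitochondrial list was not tested.

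**Figure D2:**
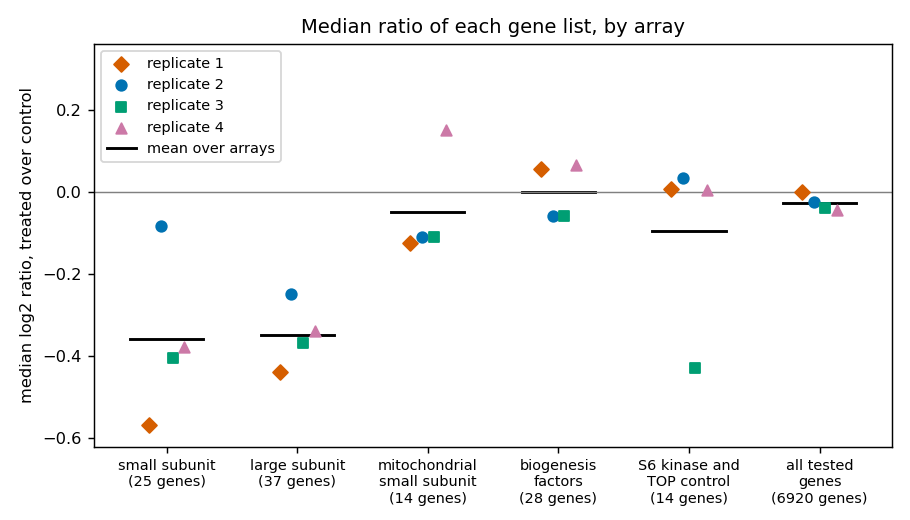
Median log2 ratio of treated over control (y axis) of each gene list (x axis, with the number of tested genes); markers are the 4 arrays and the bar is their mean. All 4 medians of the small and of the large subunit lie below 0, while the mitochondrial, biogenesis and S6 kinase lists have arrays on both sides of 0.

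The head of the subunit, which clasps the tRNAs and the exit of the mRNA path, held the gene with the smallest p. Rps29 is a small zinc-binding protein of the head, next to the mRNA path. Its log2 level was 8.65, 9.95, 10.10 and 8.89 in the treated pools of replicates 1 to 4, and 9.83, 10.57, 11.02 and 9.96 in the control pools of the same arrays. The treated pool was the lower one on each array, but the treated range overlapped the control range, since pools differed from array to array by more than 1 unit. The 4 ratios were -1.19, -0.62, -0.93 and -1.07, with a mean of -0.95 ± 0.18 (SE, n = 4), an unadjusted p of 0.00242 and an adjusted p of 0.929 in limma. The ratio corresponds to 0.517 of the control level. The only Rps29 probe is given because the lowest mean ratio rests on it. It aligns to chr12:67099313-67100211 of build mm7 on the minus strand, and this span of 899 bases for 60 probe bases means that it crosses a splice junction and reads spliced RNA.
Rps29 probe: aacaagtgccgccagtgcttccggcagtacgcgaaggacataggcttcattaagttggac

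Rps27a is made as a fusion of ubiquitin with a head protein, and the ubiquitin is cut off. The treated pools were at 8.80, 8.35, 10.83 and 10.35 and the control pools at 10.21, 8.75, 11.88 and 10.73 (log2 level). Its control level varied by 3.12 between arrays, the widest of the 25 genes, and replicate 2 was the dimmest in both channels. The ratios were nevertheless all negative, at -1.42, -0.40, -1.05 and -0.38, with a mean of -0.81 ± 0.24 (SE, n = 4), an unadjusted p of 0.0183 and an adjusted p of 0.929 in limma.

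Rps20, another head protein, had treated levels of 8.82, 9.14, 9.37 and 9.90 and control levels of 9.73, 9.57, 10.74 and 10.10. Replicate 4, the brightest treated pool, differed least from its control. The ratios were -0.90, -0.43, -1.37 and -0.19 (mean -0.72 ± 0.25, SE, n = 4, unadjusted p 0.0293, adjusted p 0.929 in limma). A probe of a separate array gene, LOC625603, which the array design describes as similar to S20, shares a run of 22 bases with this probe. Its ratios were -0.72, -0.20, -1.20 and -0.25, in the same order of arrays from lowest to highest except for replicates 2 and 4. Cross-hybridization between the 2 transcripts cannot be told apart from separate expression. Of all 32 genes, only Rps20 and a dim probe of Rps2 shared 20 or more bases with a probe of another gene.

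Rps28 sits at the mRNA exit, and it was measured by 3 probes, each detected in all 8 pools. The probe that stands for the gene had treated levels of 11.18, 11.55, 11.14 and 10.58 and control levels of 11.74, 11.80, 12.06 and 11.25. Its ratios were -0.57, -0.25, -0.92 and -0.67 (mean -0.60 ± 0.19, SE, n = 4, unadjusted p 0.0199, adjusted p 0.929 in limma). The second probe gave -0.34, -0.62, -0.68 and -0.62, and the third gave -0.57, -0.28, -0.66 and -0.62. All 12 values are below 0, and the probe means of -0.60, -0.57 and -0.53 lie within their spread over arrays.

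The sequences show that only the second probe stands apart, with no run of 20 bases shared with the others. The second probe aligns in one piece to chr17:31897157-31897216 (mm7, minus strand).
Rps28 probe 2: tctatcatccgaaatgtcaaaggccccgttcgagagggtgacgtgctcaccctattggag
Probes 1 and 3 share a run of 40 bases and then part, as the 30-base stretches below show. Capitals mark the last 20 shared bases. They align to chr17:31897015-31897154 and chr17:31897025-31897160 on the minus strand, skipping 80 and 76 genomic bases, so that probe 3 holds 4 bases more at the junction.
Rps28 probe 1: TGCGTTAATCTTGCAGCTGGgttctggata
Rps28 probe 3: TGCGTTAATCTTGCAGCTGGtggggttctg
Each version had a ratio below 0 on every array. Since most of the probe is common to both, signal from one version can bind the other's probe, and the array cannot count them apart.

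Other head proteins spread more. Rps18, which reaches across to the large subunit, had a mean ratio of -0.81 ± 0.33 (SE, n = 4), with replicate 2 at 0.22 and replicate 1 at -1.67. Its mean was -0.52 without replicate 1 and 0.027 with the sign of that array turned. Rps16, whose tail reaches the tRNA in the P site, had a smaller mean of -0.43 ± 0.16, with all 4 arrays between -0.56 and -0.28. Rps3, at the entrance of the mRNA path, ranged from -1.58 in replicate 1 to 0.53 in replicate 2 (mean -0.37 ± 0.37), and without replicate 1 its mean was 0.031. Rps25 had a mean of -0.37 ± 0.25, with replicate 1 at -1.13 and the others between -0.20 and 0.048, and without replicate 1 its mean was -0.11. For Rps12 the arrays lay between -0.18 and 0.21, around a mean of 0.035, which was 0.11 without replicate 1. Over the 12 tested genes of the head list, which also holds Gnb2l1, 11 had means below 0 and the median was -0.40.

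Rps19, like Rps24 of the body, is a gene in which mutations are known to cause Diamond-Blackfan anaemia in people. For Rps19 the ratios were -0.067, -0.047, -0.91 and -0.10, so replicate 3 alone lay well below 0. Its mean was -0.28 ± 0.22 (SE, n = 4), and without replicate 3 it was -0.072. The probe was dim, with control levels of 6.90, 6.28, 7.89 and 6.76. Another Rps19 probe, detected in no pool, read 6.15 to 6.26. From processed signals the mean of Rps19 was -1.13. The ratios near 0 on the dimmer arrays therefore cannot be read as equal levels. Rps19bp1, the Rps19-binding protein that shares the name but is no subunit protein, had ratios of -0.38, -0.16, -0.61 and -0.099 (mean -0.31 ± 0.18), with its probe detected in 4 control pools and 1 treated pool.

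**Figure D3:**
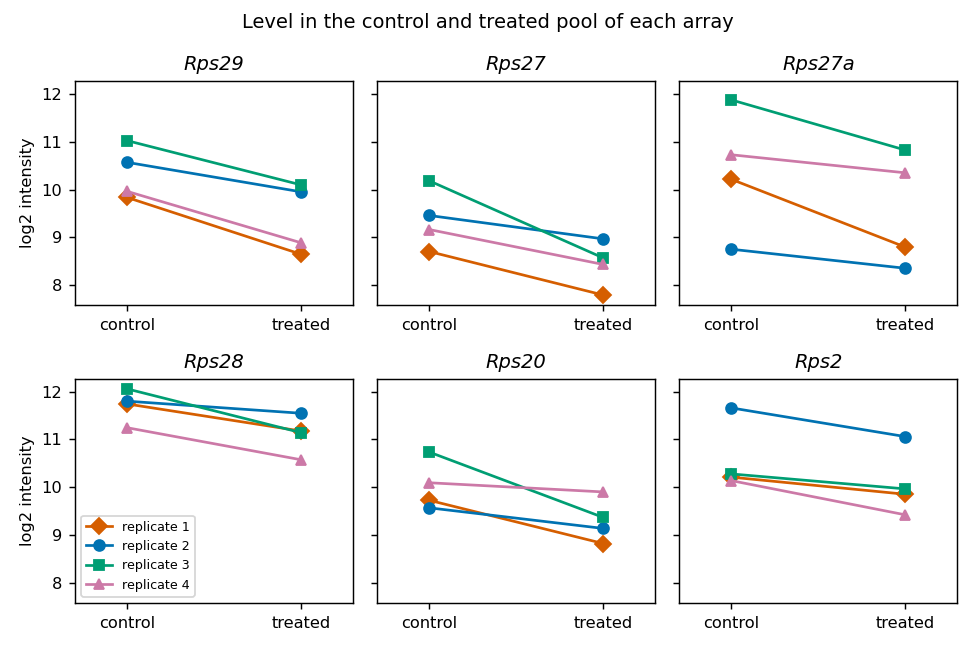
Log2 intensity (y axis) of the 6 genes with the smallest p in the control and the treated pool of each array (x axis); a line joins the 2 pools of an array. Every line is lower at its treated end, while the lines of a gene are spread so widely that the control and treated ranges overlap in all 6.

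In the body and platform, 14 genes were tested, Fau among them, 12 with means below 0, and the median was -0.37. Rps27, a zinc-finger protein of the platform, had treated levels of 7.80, 8.97, 8.57 and 8.43 and control levels of 8.70, 9.46, 10.18 and 9.16. Replicate 3 differed most and replicate 2 least. The ratios were -0.91, -0.49, -1.61 and -0.73, with a mean of -0.93 ± 0.24 (SE, n = 4), an unadjusted p of 0.00895 and an adjusted p of 0.929 in limma.

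Rps27l encodes a near-copy of Rps27 and is known as a target of p53. Its ratios were -0.80, -0.73, 0.18 and -0.54 (mean -0.47 ± 0.23), from treated levels of 10.65, 10.42, 10.13 and 10.69 and control levels of 11.45, 11.16, 9.95 and 11.23. Replicate 3 had the lowest ratio of Rps27 and the highest of Rps27l, so the 2 paralogs did not order the arrays alike. No run of 20 bases is shared between their probes.

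Rps2, at the entrance of the mRNA path, was lower in the treated pool by a similar amount on each array. The treated levels were 9.85, 11.06, 9.97 and 9.42 and the control levels 10.21, 11.66, 10.28 and 10.14. Replicate 2 was the brightest in both channels, by more than 1 unit, without standing apart in the ratio. The ratios were -0.36, -0.60, -0.31 and -0.71 (mean -0.50 ± 0.17, SE, n = 4, unadjusted p 0.0298, adjusted p 0.929 in limma).

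Rps23 lies at the decoding centre, and its arrays fell into pairs: -1.83 and -1.99 in replicates 1 and 3, and 0.17 and 0.082 in replicates 2 and 4. Its mean of -0.89 ± 0.46 (SE, n = 4) describes none of the arrays. It was -0.58 without replicate 1, -0.53 without replicate 3 and 0.024 with the sign of replicate 1 turned. Rps13 had a mean of -0.56 ± 0.21 with all arrays below 0, from -0.99 to -0.13. For Rps4x, whose gene is on the X chromosome, the mean was -0.40 ± 0.19, and replicate 2 alone was above 0, at 0.043. Rps4l, a paralog of Rps4x, was not analysed here.

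Rps15a ran from -1.57 in replicate 2 to 0.63 in replicate 1 (mean -0.35 ± 0.37), and its mean was 0.062 without replicate 2 and -0.67 without replicate 1. Rps24 ran the other way, from -1.13 in replicate 1 to 1.08 in replicate 4 (mean 0.26 ± 0.39), and its mean was -0.018 without replicate 4 and 0.72 without replicate 1. Rps26, beside the mRNA exit, had a mean of -0.19 ± 0.17 and arrays between -0.38 and 0.040. Rps7 had a value on 3 arrays, because its spot carried an outlier flag in replicate 3 and was left out, and these were -0.47, 0.79 and -0.35, with a mean of -0.0099, or 0.22 without replicate 1.

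Rps21 had 3 probes, detected in all 8 pools. The one that stands for the gene gave -0.26, -0.0074, -0.68 and -0.99 (mean -0.48 ± 0.22), the second -0.15, 0.035, -0.23 and -0.91, and the first -0.17, -0.50, -1.07 and -0.67. Of these 12 values 11 are below 0, but the probe that stands for the gene and the second one share a run of 42 bases, so they are not separate measurements. Without replicate 4 the mean for the gene was -0.31. For Rps3a the probe that stands for the gene gave -0.087, -0.084, -0.21 and -0.38 and was kept through the control channel alone, with 1 treated pool detected. The other Rps3a probe gave values between -0.018 and 0.069, so the 2 probes of this gene differ in sign on 3 of 4 arrays. Both probes were dim, and the other one read 6.31 to 6.56 in treated and 6.32 to 6.53 in control pools. With both probes so dim, the difference in sign cannot be read as a disagreement in level. From processed signals the mean of the probe that stands for the gene was -2.23, and the other probe was not compared in this way.

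**Figure D4:**
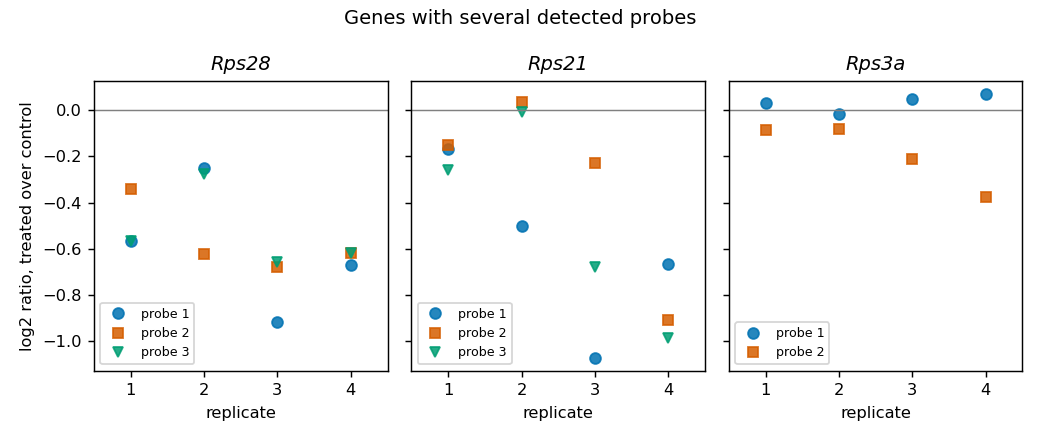
Log2 ratio of treated over control (y axis) in the 4 replicates (x axis) for genes with several kept probes; each marker shape is a probe. The 3 Rps28 probes lie below 0 on every array, 11 of the 12 Rps21 values do, and the Rps3a values lie between -0.38 and 0.069.

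A pair of subunit proteins have names outside the rule. Fau, a fusion of a ubiquitin-like protein with the body protein S30, lacked a value in replicate 1 and gave 0.50, -0.99 and -1.38 in the other replicates (mean -0.62 ± 0.43, SE, n = 3). Gnb2l1, now called Rack1, a signalling scaffold on the head, gave -0.23, 0.010, 0.14 and -0.40 (mean -0.12 ± 0.18, SE, n = 4). Neither passed the test, and each had arrays on both sides of 0.

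The level of a gene varied widely from array to array. The control level of a gene ranged over 0.38 to 3.12 log2 units across the 4 arrays, with a median range of 1.38, and the treated level had a median range of 1.29. The median size of the mean ratio, without its sign, was 0.40. In 0 of the 25 genes did all treated levels lie on one side of all control levels, which was so in 1.11% of all genes with 4 values. The SD of the ratio over arrays had a median of 0.45, against 0.52 for all genes. It ran from 0.14, for the dim probe of Rps3a, to 1.76, and was 1.18 for Rps23.

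The genes did not keep one order from array to array. Across the 24 or 25 genes with values on both arrays, the ratios of replicates 1 and 2 correlated at r = -0.63 (rho = -0.28), those of 1 and 3 at 0.35 and those of 1 and 4 at -0.21. For the other pairs r was -0.043 (2 and 3), 0.38 (2 and 4) and 0.26 (3 and 4). The points are genes of the same arrays, not replicates. Base composition of the kept probes, between 30% and 55% GC with a median of 45% (40% for all kept probes), correlated with the ratio at 0.20, -0.30, -0.022 and -0.028 in replicates 1 to 4 over 32 to 33 member probes. Over all kept probes these values were -0.18, 0.12, 0.23 and 0.22.

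Evolutionary age divides the proteins into those with a bacterial counterpart and those found in eukaryotes and archaea or eukaryotes alone. Of the universal proteins, 10 of 15 were tested, 9 had means below 0, 5 were below 0 on every array and the median was -0.53; Rps29 and Rps20 had the smallest p. In the second class, with Fau and Gnb2l1, 16 of 18 were tested, 14 had means below 0 and the median was -0.30. Of the 14 measured on 4 arrays, 6 lay below 0 on each; Rps27 and Rps27a had the smallest p. The difference between the classes was not tested. None of the genes in either class passed the test in either direction.

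Promoters were looked up because most members had mean ratios below 0 and the TOP tract is defined by the transcript's first bases. RefSeq promoters of build GRCm38.p6, from 250 bases before to 50 after each gene's start, matched 24 of the 32 genes with 29 promoters. The motif searched was a C followed by at least 4 bases that are each C or T, on the gene's own strand. In 6 of 29 promoters (20.7%) the start base was itself a C that begins such a run, against 2.51% of 32851 promoters of the same length. A run began within 10 bases of the start in 15 of 29 (51.7%), against 30.7%. The 6 genes with this start are Rps6, Rps10, Rps15a, Rps18, Rps21 and Rps27. In Rps24 and Rps9 a run also crosses the start, but the start base is a T. The 4 tested genes of the first kind and Rps24 are shown in 30-base windows around the start, with the whole tract in capitals, at chr3:90213631-90213660 (minus strand), chr17:33955648-33955677 (minus), chr2:180257367-180257396 (plus), chr7:118116130-118116159 (minus) and chr14:24490666-24490695 (plus).
Rps27: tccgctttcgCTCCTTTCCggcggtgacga
Rps18: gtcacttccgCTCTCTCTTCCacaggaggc
Rps21: cgaggacccgCCCTCCTgcccaatagtgct
Rps15a: tctttctgccatCTTCCCTCgccggtgagt
Rps24: gcgctggggtCCTTCCTTgcgcgttgatat
Their mean ratios were -0.93, -0.81, -0.48, -0.35 and, for Rps24, 0.26. Of the other tested genes with a run within 10 bases of the start, Rps12 and Rps7 had means of 0.035 and -0.0099. Rps23, Rps2, Rps27l, Rps19 and Rps26, which also have such a run, had means of -0.89, -0.50, -0.47, -0.28 and -0.19. A match is a description of these letters and not a measured start of transcription.

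The factors that build the small subunit had a median ratio near 0. Of 60 biogenesis factors on the array, 28 were tested, 15 had means below 0, 2 were below 0 on every array and the median was -0.023. Riok2, a kinase of late 40S maturation, had a mean of -0.43 ± 0.18 and Riok1, a related kinase, 0.52 ± 0.26 (SE, n = 4 each). For Riok1 replicate 1 was at -0.31 and the other arrays between 0.79 and 0.81. Of 28 genes of S6 kinase signalling and TOP mRNA control, 14 were tested, 7 had means below 0 and the median was -0.026. Eif4ebp1 and Eif4ebp2, which encode repressors of cap-dependent translation, had means of -0.72 ± 0.24 and 1.06 ± 0.62, and for Eif4ebp2 replicate 1 was at -1.29 and the other arrays between 1.33 and 2.31. No gene of either list passed the adjusted test.

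**Figure D5:**
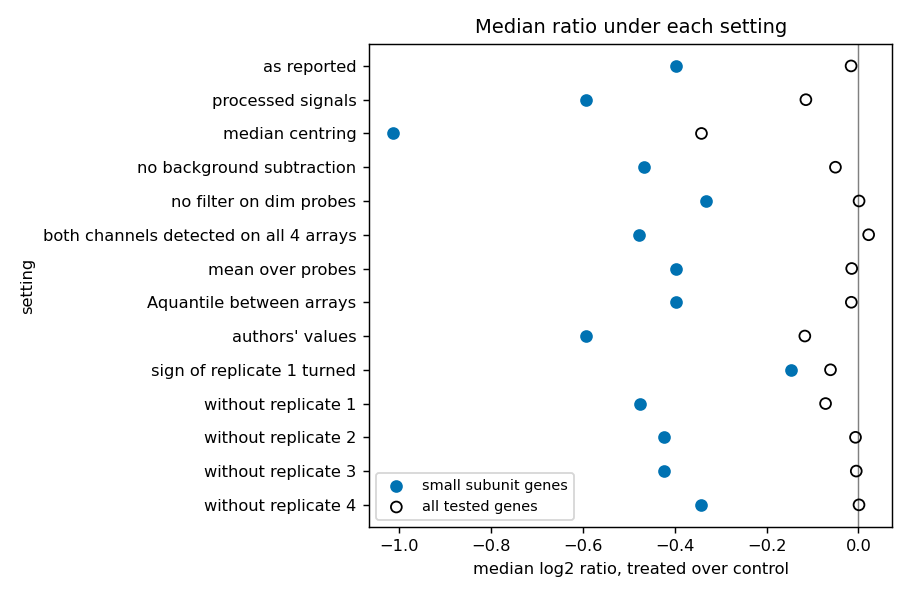
Median log2 ratio of treated over control (x axis) over the small subunit genes (filled) and over all tested genes (open) under each setting of the processing (y axis). The filled point lies left of the open one in every setting, at -0.40 as reported, -1.01 with median centring and -0.15 with the sign of replicate 1 turned.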

How the data were processed

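Each of 4 two-colour arrays compared RNA of a treated and a control pool, amplified from 240 pg in 2 rounds, per the labels' protocols. The deposited scanner files hold mean and local background intensity per spot, read out in Agilent Feature Extraction (version 9.5.1.1 in the submitters' processing notes). The authors' value table holds log10 ratios of red over green, which equal those of the scanner files and have column medians of 0. It served as an alternative. Probe positions are in mouse build mm7, per the file headers.

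Background was corrected by normexp (offset 50) and ratios by loess within arrays, with weight 0 for controls (R 4.3.3, limma 3.58.1). Flagged outlier spots were left out, and no spot was saturated. A gene was its brightest kept probe, and 8115 of 41174 probes were kept. Log2 ratios were tested against 0 with lmFit and eBayes. Each SE of a gene is the moderated one from this fit, which draws a gene's spread toward that of all genes. From the arrays of the gene alone it would be 0.071 in place of 0.16 for Rps16, and 0.59 in place of 0.46 for Rps23. Levels are log2 intensities after loess and Aquantile. The fit was tested on simulated data with independent arrays and planted changes larger than the mean ratio of any member. That run therefore does not bear on changes of the size reported here. Members and lists were chosen with earlier results of these data known. Named genes are the 6 members with the smallest p, members with several kept probes, paralog pairs and the 2 genes of each list with the smallest p; other members are given by mean, SE or range, and some genes that the rule finds are counted but not reported singly here. All arrays lie on 1 slide with 1 scan.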

Additional observations from a re-analysis of the deposited data

Results flagged for a closer look

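Within each set of 4 values, the highest or lowest array was compared with its nearest neighbour, as a share of the set's whole range (Dixon's test). Of 76 such sets, 2 held an array that stood apart, and chance gives about 5% of sets. The log2 ratio of Rps19 was -0.91 in replicate 3 and between -0.10 and -0.047 on the other arrays. On those other arrays its probe was dim, with control levels of 6.28 to 6.90 against 7.89 in replicate 3. Ratios near 0 from so dim a probe cannot be read as equal levels. The log2 control level of Rps2 was 11.66 in replicate 2 and between 10.14 and 10.28 on the other arrays.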

How the results depend on the processing

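No gene passed an adjusted p of 0.05 under any of 13 alternatives. The lowest adjusted p of all genes in limma depended on replicate 1. It was 0.93 as reported, 0.053 with the sign of replicate 1 turned and 0.17 without replicate 1. Without replicates 2, 3 and 4 it was 0.994, 0.999 and 0.997, and from processed signals 0.32. The median over the small subunit genes stayed below 0 in each alternative. It was -0.48 to -0.34 when 1 array was left out, -1.01 with median centring (all genes -0.34) and -0.15 with the sign of replicate 1 turned. The count below 0 on every array was 12 to 13 without 1 array (all genes 21.9%, 13.8%, 13.8% and 15.5% without replicates 1 to 4), 4 with median centring and 2 with replicate 1 turned. Of 23 genes, Rps19bp1 included, 15 kept the sign of the mean ratio in every alternative run. With median centring the sign turned for Rps12 (-0.65) and Rps24 (-0.16). With replicate 1 turned it did so for Rps3 (0.42), Rps7 (0.30), Rps25 (0.20), Rps18 (0.027) and Rps23 (0.024). For Rps19bp1 the mean was -0.95 from processed signals and -2.70 from the authors' values. These settings picked the brightest probe by different intensities, so the values can come from different probes of the gene. The means of Rps3a, Rps26, Rps25 and Rps19 also moved by over 1.5 times, to between -2.23 and -1.13 from either. Upward moves of that size from either were those of Rps3 (-0.37 to -0.22), Rps21 (-0.48 to -0.32), Rps24 (0.26 to 0.49) and Rps12 (0.035 to 0.085). Without background subtraction those of Rps19bp1, Rps25, Rps26 and Rps3a moved as much, to -0.57, -0.58, -0.36 and -0.32. Rps7 was 0.15 from processed signals and from the authors' values, and 0.014 without background subtraction. When 1 array was left out, the means spanned 0 for Rps12 (-0.022 to 0.11), Rps15a (-0.67 to 0.062), Rps24 (-0.018 to 0.72), Rps3 (-0.67 to 0.031) and Rps7 (-0.41 to 0.22). The causes were not tested. No paired analysis was possible beyond the test itself, which is paired, because the pools of an array already enter as 1 ratio. No block for slide or scan was run, since there is 1 of each. The number of arrays limits precision.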
